A study of Mus musculus with 6 samples.

Results

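The major urinary proteins (MUPs) of the mouse are encoded by a gene cluster on chromosome 4, and 10 of its genes are described here in the liver: Mup1, Mup2, Mup3, Mup7, Mup10, Mup11, Mup12, Mup17, Mup20 and Mup21. They were chosen by name, out of 22 protein-coding Mup genes and 35082 genes in all in the annotation used (GENCODE M21, build GRCm38). Liver RNA was sequenced from 6 male mice given a high fat diet for 20 weeks from 8 weeks of age. The control group held 3 mice of genotype G3BP1f/f, in which the gene for the RNA-binding stress granule protein G3BP1 is flanked by loxP sites. The knockout-labelled group held 3 mice of genotype Alb-cre; G3BP1f/f, which carry the same floxed alleles and Cre recombinase driven by the albumin promoter, active in hepatocytes. All 6 animals therefore shared the floxed alleles and the diet. No mice on another diet and none with Cre alone were analysed here, so Cre itself and the loss of G3bp1 cannot be told apart.

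MUPs are small lipocalins, barrel-shaped proteins with a pocket that binds volatile pheromones. Hepatocytes secrete them into the blood, the kidney filters them, and they leave the body in urine, where they release their ligands slowly and serve as scent marks. In the liver most Mup genes are expressed more highly in males than in females, under the control of the pulsed male pattern of growth hormone, which acts through the transcription factor STAT5B, and of androgens, glucocorticoids and thyroid hormone. Mup20 encodes darcin, a male pheromone that attracts females. Circulating MUP1 is also known for effects on glucose and lipid metabolism in obese mice.

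The members lie together on chromosome 4, from Mup7 at chr4:60066469-60070475 to Mup21 at chr4:62147932-62150863, all on the minus strand. Their coding sequences fell into 2 sets. Mup1, Mup2, Mup7, Mup10, Mup11, Mup12 and Mup17 differed from each other at 2 to 9 bases (21 pairs, 98.35% to 99.63% identical), with Mup1 and Mup12 the closest. The 24 pairs that included Mup3, Mup20 or Mup21 were 82.44% to 94.77% identical. The common coding length was 543 bases. In an alignment of the 10 members, 16 positions without a gap varied within the first set. The stretch of 90 coding bases that holds the most of them, 8, lies at the start of the protein and follows for every member. Even there, few bases tell these coding sequences apart. The first of the 8 positions vary only through Mup11, whose extra codon shifts the alignment, so 8 and 16 include the effect of a gap. Sequences are GENCODE M21 coding sequences in that alignment, and capitals mark bases that differ from Mup1. The coding sequences of Mup11, Mup20 and Mup21 (546 bases each) and Mup3 (555 bases) are longer than that of Mup1. Capitals at the start of their rows depend on where the gap was placed. In a pairwise alignment Mup1 and Mup11 differed at 5 bases over the whole coding sequence, gaps included.
Mup1: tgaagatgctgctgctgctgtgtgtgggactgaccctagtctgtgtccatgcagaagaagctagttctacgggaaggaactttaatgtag
Mup12: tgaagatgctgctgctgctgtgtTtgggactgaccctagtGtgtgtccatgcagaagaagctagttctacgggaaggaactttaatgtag
Mup17: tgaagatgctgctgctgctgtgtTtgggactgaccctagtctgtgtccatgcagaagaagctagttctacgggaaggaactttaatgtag
Mup2: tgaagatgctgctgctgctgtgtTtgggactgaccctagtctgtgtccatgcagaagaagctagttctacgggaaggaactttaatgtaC
Mup10: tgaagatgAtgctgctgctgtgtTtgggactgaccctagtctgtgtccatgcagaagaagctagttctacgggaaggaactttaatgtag
Mup7: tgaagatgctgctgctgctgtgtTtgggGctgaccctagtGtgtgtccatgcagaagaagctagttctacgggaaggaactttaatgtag
Mup11: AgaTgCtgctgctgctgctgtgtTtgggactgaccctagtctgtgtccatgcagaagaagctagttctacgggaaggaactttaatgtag
Mup20: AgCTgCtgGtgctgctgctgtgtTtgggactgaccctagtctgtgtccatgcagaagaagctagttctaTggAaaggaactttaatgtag
Mup21: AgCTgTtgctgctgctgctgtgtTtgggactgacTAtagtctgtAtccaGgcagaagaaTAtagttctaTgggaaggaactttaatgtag
Mup3: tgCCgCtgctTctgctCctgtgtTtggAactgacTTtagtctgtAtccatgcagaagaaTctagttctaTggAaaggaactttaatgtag

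The same likeness runs along the whole transcript, and it bears on how far a value belongs to 1 gene. Of all windows of 100 bases in a member's transcript, those found in no other gene made up 96.9% in Mup3, 95.5% in Mup21 and 61.16% in Mup20. In the 7 near-identical members the share ran from 2.66% in Mup2 to 40.58% in Mup17, and it was 12.8% in Mup1 and 12.92% in Mup7. Each share was taken from 1 coding transcript of the gene. For Mup2 that transcript (Mup2-201) was listed at 0 in every library, and for Mup10 (Mup10-201) it held 0 to 200 counts per library. No window was shared with a gene outside the Mup family. The deposited counts are estimates in which reads that fit several transcripts were divided by the quantifier, so the values of the 7 near-identical members are uncertain one by one. Their sum is not free of this either, since they also share windows with Mup genes outside the 10.

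The regions upstream of the members were searched for 2 short motifs. RefSeq (GRCm38.p6) promoter windows, from 250 bases before to 50 bases after the annotated start, were found for 7 of the 10 members. The TATA-box letters TATATAA, searched on both strands, were present in 6 of these 7 and in 3.242% of 32851 mouse promoter windows. The member window without them was that of Mup7. The letters TTCNNNGAA, the consensus that STAT factors bind, were present in 0 of the 7 and in 8.298% of all windows. With so few windows, some of them alike in sequence, and so low a share over all windows, 0 of 7 does not set the members apart. Sites farther from the start were not searched. The 100 bases that end at TATATAA, in capitals, are shown for 2 near-identical members and for Mup3, to show an A-rich tract before the box whose length varies between genes. The GENCODE transcripts of all 3 start upstream of the box.
Mup11 (chr4:60662391-60662490, minus strand): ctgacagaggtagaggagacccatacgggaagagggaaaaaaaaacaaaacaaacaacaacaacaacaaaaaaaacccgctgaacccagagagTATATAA
Mup17 (chr4:61595851-61595950, minus strand): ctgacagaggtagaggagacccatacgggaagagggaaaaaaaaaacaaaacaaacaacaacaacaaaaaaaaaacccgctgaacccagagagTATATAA
Mup3 (chr4:62087322-62087421, minus strand): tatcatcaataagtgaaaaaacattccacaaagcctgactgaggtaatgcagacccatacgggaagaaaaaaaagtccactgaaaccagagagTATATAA

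Libraries held 20899135 to 21750007 estimated counts. G3bp1 itself stood at 44.1, 34.8 and 40.5 CPM (depth-scaled counts-per-million) in control mice 1 to 3 and at 44.0, 30.0 and 31.5 CPM in knockout-labelled mice 1 to 3. The groups overlapped, with a log2 difference of -0.18 (SE 0.22, 95% interval -0.67 to 0.31, edgeR adjusted p = 0.9087), so the targeted gene did not separate the labels and every direction below is a difference between labelled groups. The deposited values are per transcript and do not show whether an exon was deleted. Knockout-labelled mice 2 and 3 stood apart from the other 4 libraries in the share of transcripts above 0 (36.3% and 37.8%, against 30.2% to 31.2%) and in mitochondrial counts (9.16% and 10.1% of the library, against 7.20% to 7.62%). The file of knockout-labelled mouse 1 was made with a different fragment length setting, described with the processing.

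Mup transcripts took a large and uneven part of these libraries. The 10 members took 6.07%, 8.997% and 1.70% of all estimated counts in control mice 1 to 3, and 2.05%, 2.70% and 5.21% in knockout-labelled mice 1 to 3. Counting error is negligible beside this spread: the exact 95% binomial interval of the lowest share was 1.69% to 1.70%, and such intervals cover counting error only. All 22 Mup genes together took 13.6%, 18.7% and 4.24% of the control libraries and 4.02%, 6.93% and 13.0% of the knockout-labelled ones. In both sums, control mouse 3 and knockout-labelled mouse 1 were the low libraries, and control mouse 2 the high one. In bulk liver RNA, fewer hepatocytes and less Mup RNA per hepatocyte cannot be told apart.

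**Figure D1:**
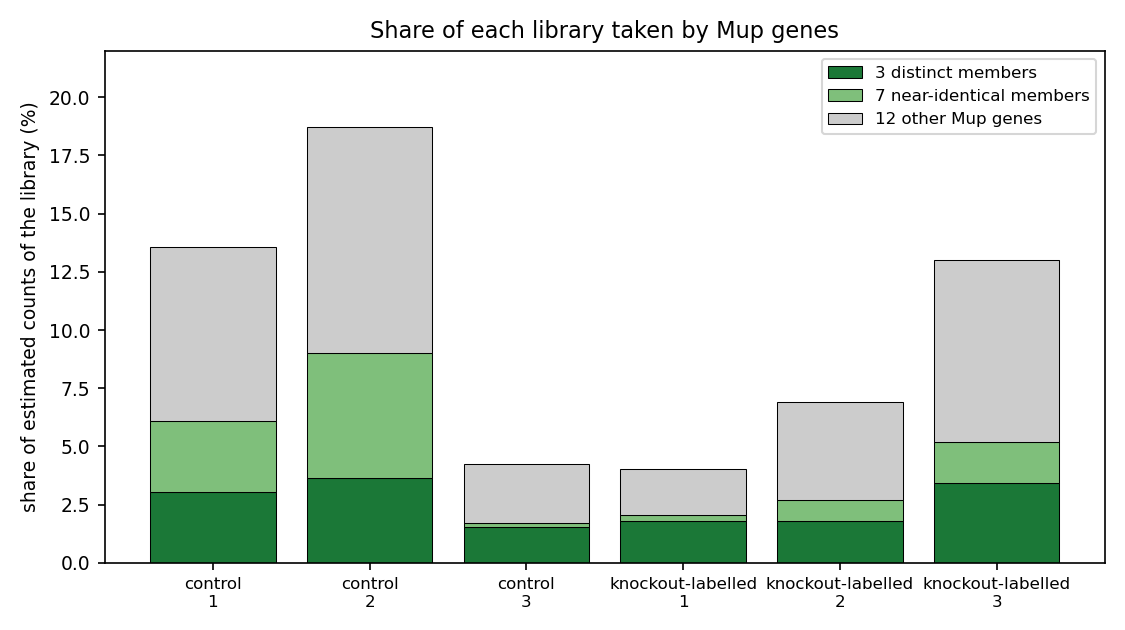
Share of each library's estimated counts (vertical axis, %) taken by the 3 distinct members, the 7 near-identical members and the 12 other Mup genes, stacked, in 3 control and 3 knockout-labelled livers. The whole stack runs from 4.02% to 18.7%, and the near-identical members nearly vanish in control mouse 3, at 0.163%. The 12 other Mup genes, some of them as close in sequence, took 2.54% of that library.

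Per transcript length, Mup20 had the highest mean level of the members over the 6 libraries, at 20108 TPM (the length-scaled transcripts-per-million unit), followed by Mup7 at 13656 TPM, Mup3 at 8754 TPM and Mup11 at 5394 TPM. Mup1 averaged 1464 TPM, Mup17 897 TPM, Mup12 532 TPM, Mup10 274 TPM, Mup21 254 TPM and Mup2 49.1 TPM. Of the 9 pairs of neighbours in this order, 2 kept it in 6 of 6 libraries, Mup11 above Mup1 and Mup21 above Mup2. Another 4 kept it in 5 of 6: Mup20 above Mup7, Mup3 above Mup11, Mup1 above Mup17 and Mup17 above Mup12. The remaining 3 pairs did not differ beyond their spread, with Mup7 above Mup3, Mup12 above Mup10 and Mup10 above Mup21 in 3 of 6 each. The difference between the highest and the lowest liver was largest for Mup7, from 595 TPM in control mouse 3 to 41078 TPM in control mouse 2, and darcin (Mup20) ranged from 9871 to 33419 TPM.

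No member passed the test between the groups. All 10 had a lower mean CPM in the knockout-labelled livers, and all 10 had overlapping groups. In TPM the control and knockout-labelled means were 8583 and 8925 for Mup3 and 246 and 261 for Mup21, so these genes were not lower in that unit. Values in the next paragraphs are CPM scaled with trimmed-mean (TMM) factors, log2 differences are knockout-labelled minus control, and adjusted p-values are from edgeR's quasi-likelihood test with Benjamini-Hochberg adjustment over 12497 genes tested. That test called 0 of the 10 members and 0% of all genes. At an unadjusted p under 0.05 it held 3 members, all lower, against 4.55% of all genes in either direction and 1.9% lower. DESeq2 and limma voom also called 0 members, with 3 and 0 at an unadjusted p under 0.05. Log2 differences at or below -1 were found in 6 members, and in 1.06% of all genes. A log2 difference below 0 was found in 48.4% of all genes, whose groups did not overlap in 9.34% of cases.

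Among the near-identical set, Mup7 was the most abundant. It stood at 22675, 42413 and 529 CPM in control mice 1 to 3 and at 1234, 4869 and 8074 CPM in knockout-labelled mice 1 to 3. The lowest value of all belonged to a control, 80.2 times under the highest, which was a control too. The log2 difference was -2.21 with a 95% interval of -5.001 to 0.58 (adjusted p = 0.8448, edgeR).

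Mup1, the member with known metabolic effects, shared with Mup7 its highest library and its 2 lowest. It measured 2106, 4243 and 271 CPM in the controls and 171, 472 and 895 CPM in the knockout-labelled livers (log2 difference -2.11, SE 0.91, edgeR adjusted p = 0.8448). Mup12, its closest relative in sequence, was at 804, 1617 and 125 CPM against 56.0, 184 and 310.5 CPM. Both genes were highest in control mouse 2 and lowest in knockout-labelled mouse 1, and in both control mouse 3 lay under 2 of the knockout-labelled livers. The difference for Mup12 was -2.21 (SE 0.88, edgeR adjusted p = 0.8448), and its 95% interval, -4.21 to -0.21, stayed below 0.

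Mup11 and Mup17 are further urinary MUPs of this set. Mup11 read 6477, 13147 and 475 CPM in the controls and 842, 2320.0 and 4899.6 CPM in the knockout-labelled livers. Mup17 read 1207, 2031 and 68.0 CPM against 125, 255 and 1249 CPM. In both genes control mouse 3 was the lowest of the 6, and knockout-labelled mouse 3 was the highest of its group. Log2 differences were -1.32 (SE 1.01) for Mup11 and -1.02 (SE 1.11) for Mup17. They were -0.37 and -0.23 without control mouse 2, and -2.08 and -2.54 without knockout-labelled mouse 3.

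Mup2 and Mup10 were the least abundant of the set, and both rested on minor transcripts. Mup2 was at 54.0, 95.9 and 8.38 CPM in the controls and at 1.04, 19.9 and 33.5 CPM in the knockout-labelled livers, where the lowest value came from 24 counts. Its full-length transcript (Mup2-201, 927 bases) was listed at 0 in all 6 libraries, so its counts came from a shorter coding transcript of 761 bases and a processed transcript of 817 bases. For Mup10, a transcript annotated as a retained intron (797 bases) held 95.2% or more of its counts in every library.

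Mup10 also varied least within this set. Its values were 319.9, 268 and 157 CPM in the controls and 122, 165 and 173 CPM in the knockout-labelled livers, a range of 2.62 times. Only control mouse 3 kept the groups from separating. The log2 difference was -0.70 (SE 0.30, 95% interval -1.38 to -0.01, edgeR adjusted p = 0.8448).

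Mup3, Mup20 and Mup21, whose transcripts are easier to tell apart, varied by 2.85 to 4.89 times over the 6 libraries, less than 6 of the 7 near-identical genes. Mup20 (darcin) measured 25355, 29831 and 10646 CPM in the controls and 11527, 7465 and 23894 CPM in the knockout-labelled livers. Mup3 measured 8419, 13243 and 4654 CPM against 4846, 9416 and 6207 CPM. Neither gene separated the groups: for Mup20 knockout-labelled mouse 3 was near the 2 high controls, and for Mup3 knockout-labelled mouse 2 was above control mouse 1. Log2 differences were -0.62 (SE 0.56) for Mup20 and -0.36 (SE 0.46) for Mup3.

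Mup21, at 159, 267 and 54.6 CPM in the controls, held to 114, 131 and 133 CPM in the knockout-labelled livers. The knockout-labelled values thus lay between the lowest control and the others, and the log2 difference was -0.35 (SE 0.47). Adjusted p-values of these 3 genes were 0.8752 to 0.9177 with edgeR. Without control mouse 2 the differences of Mup3 and Mup21 turned to 0.063 and 0.24.

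**Figure D2:**
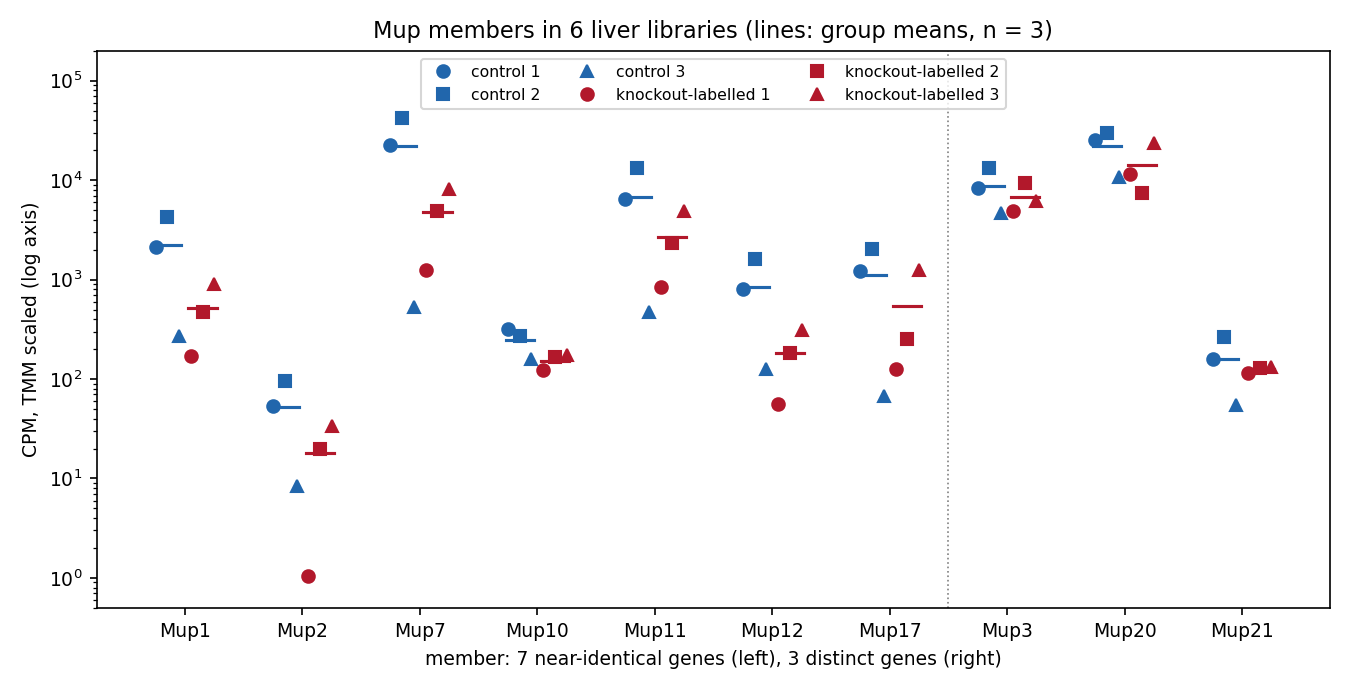
CPM of each member (vertical log axis) in the 3 control (blue) and 3 knockout-labelled (red) livers, with a line at each group mean. For the 7 near-identical genes on the left control mouse 3 and knockout-labelled mouse 1 are the 2 lowest libraries, and all 10 genes have overlapping groups.

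Summed, the members also overlapped between the groups. The sum of the 10 was 67576, 107155 and 16988 CPM in the controls and 19040, 25296 and 45868 CPM in the knockout-labelled livers. Group means were 63907 ± 45195 and 30068 ± 14036 CPM (SD, n = 3 each), a log2 ratio of -1.09, and no test was made on the sum. The control SD alone exceeded the difference of the means. Without control mouse 2 the log2 ratio was -0.49, and without control mouse 3 it was -1.54. Without knockout-labelled mouse 1, whose file was made with another setting, it was -0.84, and without knockout-labelled mice 2 or 3 in turn it was -0.98 and -1.53.

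The sum of the 7 near-identical genes differed more between the groups than that of the distinct genes, at log2 ratios of -1.90 and -0.54, and spread more as well. The near-identical genes took 3.02%, 5.36% and 0.163% of the control libraries and 0.275%, 0.883% and 1.77% of the knockout-labelled ones, a range of 39.1 times in CPM. The 3 distinct genes took 3.05%, 3.64% and 1.53% against 1.78%, 1.81% and 3.43%, a range of 2.82 times. Both sums overlapped between the groups. Without control mouse 2 the log2 ratios were -0.999 and -0.21, and without knockout-labelled mouse 3 they were -2.61 and -0.88. In TPM they were -1.36 and -0.10. The median log2 difference was -1.54 over the near-identical genes, -0.36 over the distinct genes and -1.17 over all 10, beside 0.01 over all genes tested. The median over all 10 was -0.50 without control mouse 2 and -2.21 without knockout-labelled mouse 3. Some Mup genes outside the 10 are as close in sequence: Mup11 was 99.82% identical to Mup18 and 99.63% to Mup22. The sum of the 12 other Mup genes gave a log2 ratio of -0.82 and a range of 6.33 times in CPM. The ratio of -1.90 and the range of 39.1 times thus describe the 7 genes, not near-identical Mup genes in general.

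**Figure D3:**
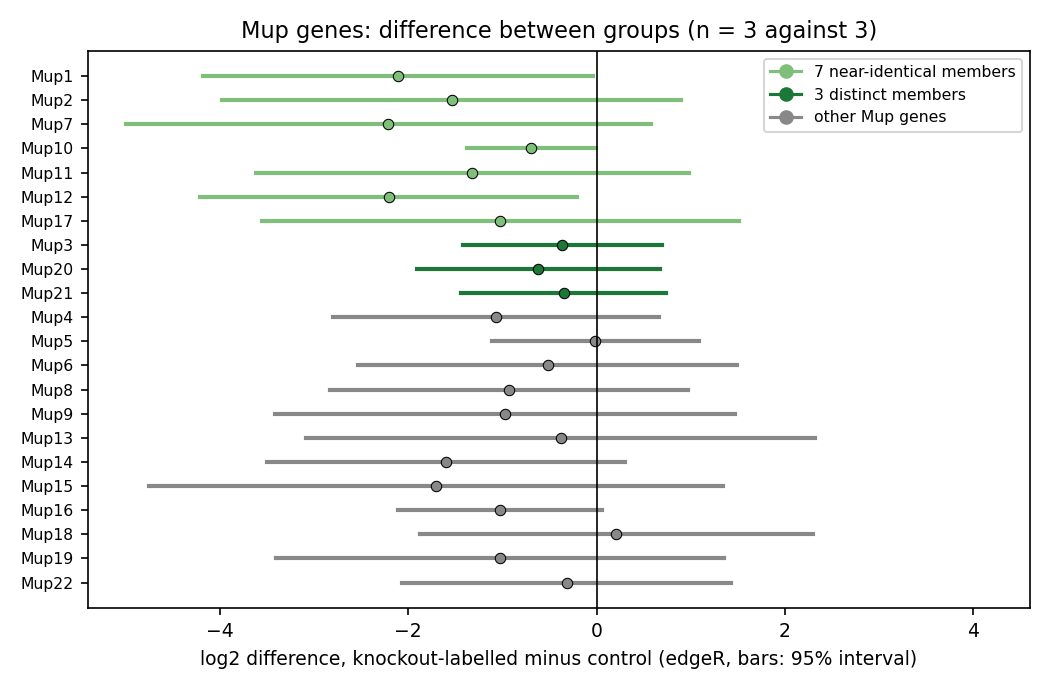
Log2 difference of each Mup gene, knockout-labelled minus control (horizontal axis), from edgeR with its 95% interval as a bar, in 3 against 3 livers. All 10 members and 11 of the 12 other genes lie left of 0, and the bars of 3 members, Mup1, Mup10 and Mup12, do not cross it.

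Most of these genes varied widely over the 6 livers, although Mup10 and Mup21 were close together within the knockout-labelled group. The ratio of the highest to the lowest library had a median of 26.2 over the 10 members, against 1.92 over genes tested with no value of 0, where the 99th percentile was 16.3. The SD of log2(CPM + 1) over the 6 libraries had a median of 1.77 over the members and 0.29 over all genes tested. Control mouse 2 was the highest library in 9 of 10 members (Mup10 was highest in control mouse 1), and in 17.2% of all genes tested. Control mouse 3 and knockout-labelled mouse 1 were the 2 lowest libraries in 9 of 10 members and in 8.36% of all genes; the exception was Mup20, lowest in knockout-labelled mouse 2. Since near-identical members share reads, these counts are not independent of each other.

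The make-up of the family differed from liver to liver. Mup20 made up a median of 44.8% of the members' counts, from 27.8% in control mouse 2 to 62.7% in control mouse 3. The share of Mup7 ran the other way, from 39.6% in control mouse 2 to 3.11% in control mouse 3, with a median of 18.4%. Mup3 held 12.4% to 37.2%, and was highest in knockout-labelled mouse 2. Mup11 held 2.80% to 12.3%, and no other member exceeded 3.96%. Darcin took the largest part in the 2 livers with the least Mup RNA, at 62.7% in control mouse 3 and 60.5% in knockout-labelled mouse 1. Its part did not follow the level beyond them: it was 29.5% in knockout-labelled mouse 2, the next lowest in Mup RNA, and 52.1% in knockout-labelled mouse 3, one of the higher ones.

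**Figure D4:**
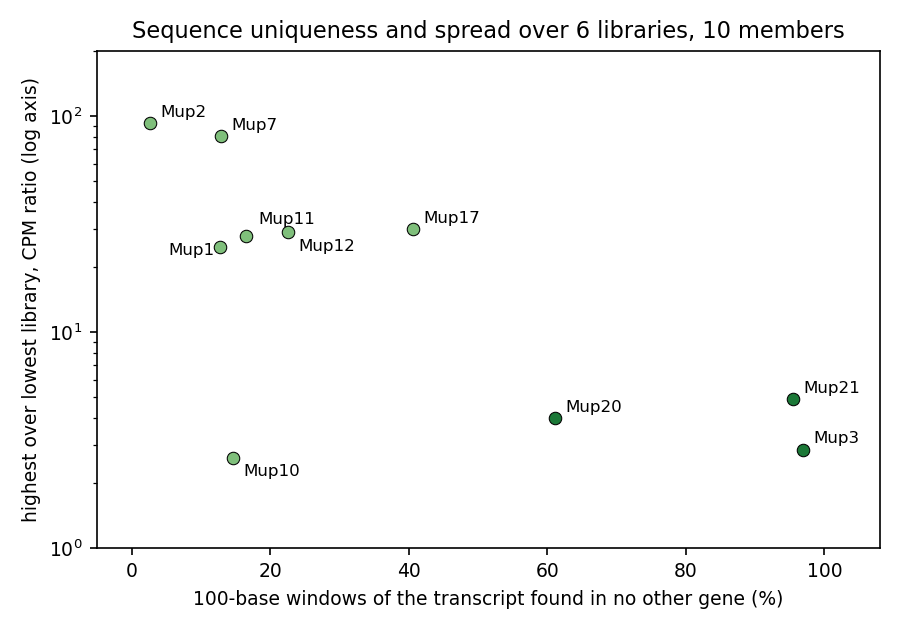
Ratio of the highest to the lowest library in CPM (vertical log axis) against the share of a transcript's 100-base windows found in no other gene (horizontal axis, %), 1 point per member. The 3 distinct genes lie at 61.16% or more with ratios of 2.85 to 4.89, and the near-identical genes at 40.58% or less with ratios of 2.62 (Mup10) to 92.6 (Mup2). For Mup10 and Mup2 the windows are of full-length coding transcripts that held few or none of the counts behind their ratios.

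The shares that single transcripts took of all Mup counts differed between libraries. One transcript of Mup14, Mup14-203, took 23.2%, 4.45% and 9.30% of the counts of all 22 Mup genes in control mice 1 to 3 and 30.8%, 1.29% and 0.99% in knockout-labelled mice 1 to 3. The transcript of Mup22, which has no window of 100 bases to itself, took 11.3%, 21.7% and 43.1% against 11.3%, 38.6% and 33.1%. Both shares overlapped between the groups. Whether such shares reflect expression or the quantifier's division of shared reads was not tested.

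Of the 12 other Mup genes, 11 also had a lower fitted level in the knockout-labelled livers, and their median log2 difference was -0.95. edgeR and DESeq2 called 0 of the 12, with 0 and 1 at an unadjusted p under 0.05, and all 12 had overlapping groups. The most abundant of them gave -1.60 for Mup14, -1.03 for Mup19 and -0.32 for Mup22. Mup15 stood at -1.71, Mup16 at -1.03, Mup9 at -0.97, Mup8 at -0.93 and Mup13 at -0.38. Mup18 stood at 0.21, the one value above 0. These directions rested on single libraries: without control mouse 2, 6 of the 12 lay above 0 with a median of -0.12, and without knockout-labelled mouse 1, 3 lay above 0 with a median of -0.49. With library totals in place of scaling factors, 3 lay above 0 with a median of -0.59. With limma voom, with the replicate number as a block or without knockout-labelled mouse 3, all 12 lay below 0, Mup18 included. Mup5, known from lacrimal and salivary glands and distinct in sequence (98.67% of windows its own), was at -0.01 and averaged 8.46 ± 3.58 CPM in controls and 8.38 ± 4.66 CPM in knockout-labelled livers (SD, n = 3 each).

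Genes of the growth hormone pathway showed a narrower spread at their median. Their median deviation from each gene's own mean, on the log2(CPM + 1) scale, stayed between -0.21 and 0.19 in all 6 libraries, and the ratio of the highest to the lowest library had a median of 2.10. Some of its genes varied as much as the distinct Mup genes or more. Socs2, a feedback inhibitor that growth hormone induces, ranged from 3.03 to 29.0 CPM, the feedback inhibitor Cish from 1.37 to 8.50 CPM, and the binding proteins Igfbp1 and Igfbp2 from 62.2 to 343 and from 223 to 801 CPM; these 4 were named after their values were seen. Of 18 genes of this axis tested, 7 lay below and 11 above 0, with a median log2 difference of 0.13, and edgeR and DESeq2 called 0, with 0 at an unadjusted p under 0.05 in both. Stat5b, the main transducer of male growth hormone pulses, stood at 23.6, 15.4 and 18.3 CPM in the controls and 23.9, 26.2 and 25.2 CPM in the knockout-labelled livers (log2 difference 0.39, SE 0.21, edgeR adjusted p = 0.8448). Its groups did not overlap, with the knockout-labelled livers higher, as in 4.79% of all genes, and its lowest value was in control mouse 2, where Mup genes were highest. Igf1, the hormone that growth hormone induces in liver, gave -0.39 (SE 0.27), Stat3 gave 0.37 (SE 0.22) and the insulin receptor substrate Irs1 gave 0.40 (SE 0.26).

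Other male-biased liver genes moved across the livers somewhat as the Mup genes did. Of 16 tested, 14 were lower on average in the knockout-labelled livers and the median log2 difference was -0.81. edgeR called 0, with 3 at an unadjusted p under 0.05 (DESeq2 0 and 5). Their median deviation, on the same scale, was 0.59, 1.41 and -0.58 in control mice 1 to 3 and -0.58, -0.38 and 0.43 in knockout-labelled mice 1 to 3. That of the Mup members was 1.34, 2.23 and -1.20 against -1.73, -0.21 and 0.42. Control mouse 2 was the highest library in 11 of the 16, but control mouse 3 and knockout-labelled mouse 1 were the 2 lowest in 4 of the 16.

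Named members of that list differed in direction. Cyp7b1, an oxysterol hydroxylase, gave a log2 difference of -1.48 (SE 0.51), the glutathione transferase Gstp1 gave -0.84 (SE 0.35) and the cytochrome Cyp2d9 gave -0.68 (SE 0.32). Elovl3, a fatty acid elongase, gave 1.02 (SE 0.39), with 69.2, 105 and 43.9 CPM in the controls and 85.9, 167 and 188 CPM in the knockout-labelled livers. All of these had an edgeR adjusted p of 0.8448.

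**Figure D5:**
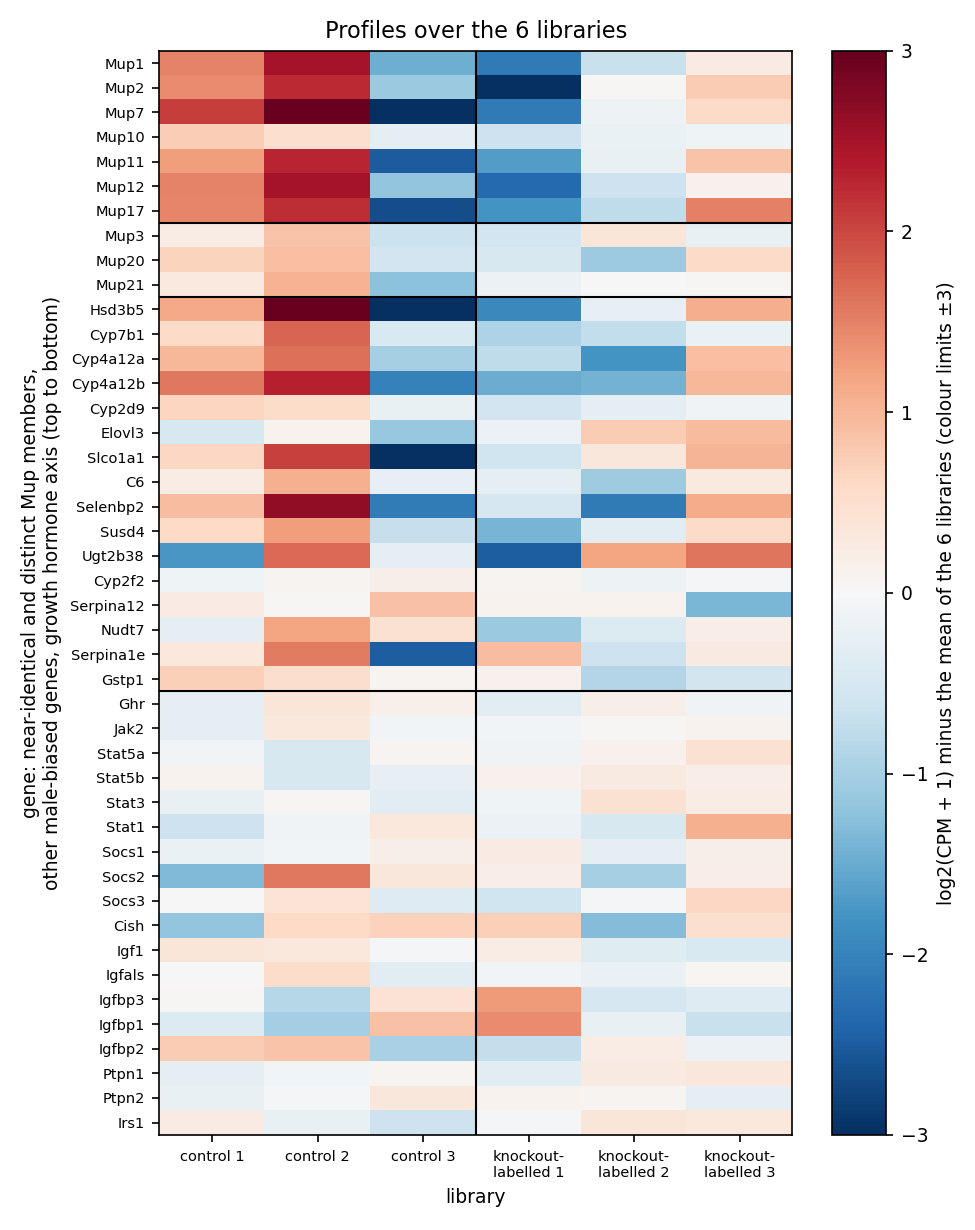
Deviation of log2(CPM + 1) from each gene's mean over the 6 libraries (colour, limits ±3) for the 10 Mup members, 16 male-biased genes and 18 growth hormone axis genes (rows), by library (columns). The Mup and many male-biased rows are red in control mouse 2 and blue in control mouse 3, while most rows of the growth hormone axis stay pale.

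At their median, female-biased liver genes deviated the other way from the Mup members across the livers. Their median deviation was -0.20, -0.44 and 0.62 in control mice 1 to 3 and 0.21, 0.05 and -0.44 in knockout-labelled mice 1 to 3, opposite in sign to that of the Mup members in 6 of 6 libraries. Of 10 tested, 6 lay below and 4 above 0 (median -0.54), edgeR called 0 with 2 at an unadjusted p under 0.05, and DESeq2 called Cyp2c40. Cyp2c40 was at 0, 0.11 and 0 CPM in the controls and at 4.44, 0.97 and 1.05 CPM in the knockout-labelled livers, and its control level lay under the 0.14 to 0.16 CPM that 3 counts are worth there. Acot3, an acyl-CoA thioesterase, gave a log2 difference of -1.32 (SE 0.50) and the magnesium transporter Nipal1 gave 0.85 (SE 0.43). Acot3 did not follow the median of its list: it was highest in control mouse 2 (200.5 CPM) and lowest in knockout-labelled mouse 1 (27.4 CPM). Cyp2b13 gave -2.96 (SE 1.36), with control mouse 3 at 24.6 CPM and 0.44 to 1.81 CPM in the other 5 livers.

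Transcription factors known to act on Mup or sex-biased genes were spread around 0, with 6 of 15 below and 9 above and a median of 0.14. edgeR and DESeq2 called 0 of them, with 2 and 4 at an unadjusted p under 0.05. The pioneer factor Foxa2 gave 0.62 (SE 0.23), Cebpb gave -0.64 (SE 0.29) and its relative Cebpa, a factor of hepatocyte differentiation, gave -0.61 (SE 0.29).

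Other lipocalins and the genes beside the cluster had medians nearer 0 than the -1.17 of the 10 members. The lipocalin median was close to the -0.36 of the distinct members, and single lipocalins differed more than some members did. Of 9 other lipocalin genes tested, 8 lay below 0 with a median of -0.34, and edgeR and DESeq2 called 0, with 1 at an unadjusted p under 0.05 in both. Obp2a, an odorant-binding lipocalin, gave -1.55 (SE 0.59), the complement subunit C8g -0.52 (SE 0.34), and the acute phase orosomucoids Orm3 and Orm2 -1.14 (SE 0.80) and -0.82 (SE 0.67). Across the livers this list did not follow the Mup genes: its median deviation was 0.60 in control mouse 3, where Mup members were at -1.20. Of 8 genes tested that flank the cluster, 4 lay on each side of 0 with a median of -0.03, and edgeR and DESeq2 called 0, with 0 and 1 at an unadjusted p under 0.05. Among them Alad, an enzyme of haem synthesis, gave -0.71 (SE 0.33), the DNA polymerase subunit Pole3 -0.54 (SE 0.24), Hdhd3 -0.38 (SE 0.23) and Fkbp15 0.27 (SE 0.19).

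Among 6073 genes outside the family with a mean of at least 10 CPM, the profile nearest to that of the summed members was that of Cyp4a31, a fatty acid omega-hydroxylase. Its centred log2(CPM + 1) differed from that of the sum by a root mean square of 0.24 over the 6 libraries, beside a median of 1.00 over the 6073 genes. Cyp4a31 read 59.3, 87.4 and 17.3 CPM in the controls and 14.2, 27.3 and 56.3 CPM in the knockout-labelled livers, in the order of the Mup sum except that knockout-labelled mouse 1 was the lowest. The next nearest were Susd4 (0.32), Cyp7b1 (0.37), Rpp40 (0.41), Cyp2c54 (0.43) and Igfbp2 (0.48). Susd4 and Cyp7b1 are also on the male-biased list, and Igfbp2 is on the growth hormone axis list.

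The livers carried hepatocyte markers throughout. All 8 of 8 hepatocyte markers were above 0 in every library, and their sum was 98784, 107726 and 128755 CPM in the controls and 111749, 112075 and 68197 CPM in the knockout-labelled livers. Control mouse 3, low in Mup transcripts, thus had the highest hepatocyte sum and knockout-labelled mouse 3 the lowest. The 5 stellate cell markers summed to 146, 83.9 and 267 CPM in the controls and 217, 183 and 127 CPM in the knockout-labelled livers, lowest in control mouse 2 and highest in control mouse 3 and knockout-labelled mouse 1, the reverse of the Mup order at both ends. The 7 Kupffer cell markers summed to 198, 282 and 626 CPM against 274, 192 and 232 CPM, also highest in control mouse 3. The sum of the 5 sinusoidal endothelial cell markers did not reverse the Mup order. It was lowest in control mouse 1 (76.8 CPM) and highest in knockout-labelled mouse 2 (130.7 CPM). The part of these cell types in the Mup values was not tested. Of the 4 pancreatic acinar markers, Prss2 and Cpa1 were at 0 in all 6 libraries, and 1 was above 0 in all 6. The sum of the 4 was lowest in knockout-labelled mouse 3, at 6.20 CPM, so acinar marker counts were present in every library.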

How the data were processed

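Per the file headers, each deposited file holds 1 library's estimated counts, TPM and effective lengths for 115221 transcripts, in Salmon's column layout. Per the labels' protocols, poly-A RNA was enriched. Version and transcriptome of the quantifier: not given in the sources used here. The submitters' processing notes name Bowtie2 2.2.5, RSEM 1.2.8, DESeq and GRCm38 with no role. The deposited TPM values are scaled by the authors within each library. Knockout-labelled mouse 1 has a 100-base transcript at an effective length of 3.50, against 100 in the other 5, so its TPM values carry another setting. Whether the setting also affected its estimated counts, and so the division of reads shared by Mup transcripts, was not tested.

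Estimated counts were summed per GENCODE M21 gene (113664 identifiers matched without version, 13 with, 1557 unmatched, left out) and rounded. Libraries held 20899135 to 21750007 counts. edgeR 4.0.16 (R 4.3.3; quasi-likelihood, TMM factors of 0.84 to 1.14, filterByExpr, threshold 0.05) compared 3 control with 3 knockout-labelled animals over 12497 genes, with DESeq2 1.42.0 and limma 3.58.1 as alternatives. In simulated counts for this comparison over 12497 genes, edgeR called 6 of 50 genes changed by log2 1, 42 of 50 by 2, 50 of 50 by 4 and 26 of 50 by -2, and 7 of 12297 unchanged genes. The changed genes were drawn at random from all genes tested. The median SD of log2(CPM + 1) was 0.29 over those and 1.77 over the members, so these rates do not describe the members.

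Coding sequences were compared in place of the protein sequences that had been planned, with Biopython 1.88 and mafft 7.526. Named genes were the members, other Mup genes with a mean of at least 1 CPM, up to 4 genes per list with the smallest p, and the 6 genes nearest in profile. A gene named by this rule is not reported here. The members, lists and tests were chosen with earlier results of these data known. The division of the members into near-identical and distinct genes used sequence only. Replicate numbers were not used to pair the animals in the main test (see the closing section).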

Additional observations from a re-analysis of the deposited data

How the results depend on the processing

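All 10 members kept a log2 difference below 0 under 14 of 15 alternatives, and 0 were called under any of the 15; edgeR, DESeq2 and limma voom were the tools. The exception was leaving out control mouse 2, where Mup3 and Mup21 turned to 0.063 and 0.24. Over all libraries left out in turn they ranged from -0.67 to 0.063 and from -0.75 to 0.24. TPM was not among the 15 alternatives, and in TPM the means of Mup3 and Mup21 were higher in the knockout-labelled livers. The median over the members ran from -2.21 to -0.50 over the alternatives. Leaving out each library in turn moved Mup1 from -2.78 to -1.21, Mup2 from -2.33 to -0.78, Mup7 from -2.84 to -1.29, Mup10 from -0.93 to -0.47, Mup11 from -2.08 to -0.37, Mup12 from -2.82 to -1.34, Mup17 from -2.54 to -0.23 and Mup20 from -1.21 to -0.31. The alternatives for the other Mup genes and for the 2 set sums were chosen after seeing the data. The log2 ratio of the summed members was -1.09 as reported, -0.75 with library totals, -1.11 with DESeq2 size factors, -0.62 in TPM, -0.83 with geometric means, -0.94 over all Mup genes, and -1.54 to -0.49 when each library was left out in turn. Scaling by genes other than Mup, chosen after seeing the data, gave -0.85. Over all genes, edgeR called 0. DESeq2 called 6 higher and 5 lower, none a Mup gene. With edgeR, leaving out each library in turn gave 0 to 2 higher and 0 to 1 lower. These calls came only without knockout-labelled mouse 1, where 2002 genes had an unadjusted edgeR p under 0.05, against 568 with all libraries. Leaving out another library gave 196 (knockout-labelled mouse 2) to 1082 (control mouse 1) such genes. The cause was not tested. Library totals moved the median of all genes from 0.01 to 0.27.

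With the replicate number as a block, edgeR called 0 genes in either direction and 0 members, and the median over the members was -1.44. Same-numbered animals of the 2 groups had correlated deviations of 0.20, 0.28 and -0.14, and control mouse 3 correlated best with knockout-labelled mouse 1. With so few animals these correlations can neither show nor exclude a pairing. The labels give only a replicate number.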

Other observations

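The 26 Mup pseudogenes of the annotation held 382, 507 and 390 estimated counts in control mice 1 to 3 and 380, 437 and 867 in knockout-labelled mice 1 to 3. They were thus highest in knockout-labelled mouse 3, not in control mouse 2, where the coding Mup genes were highest. Mup13 was listed at 0 in knockout-labelled mouse 1, and at 4.05 to 22.0 CPM in the other 5 livers.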
